A study of Arabidopsis thaliana with 12 samples.

Results

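The response of Arabidopsis thaliana to abscisic acid (ABA) was compared between the natural accession Kn-0 and the reference strain Col-0, gene by gene, as the interaction of accession and treatment. For each gene the quantity was the ABA response in Kn-0 minus that in Col-0, each as a log2 fold change against mock. A gene was included where both deposited gene tables listed it with a mean normalised count of at least 50, which left 18869 genes of the 27801 in both tables and of the 37865 in either. At that limit, AT2G24030 entered with a mean of 50.04 in Col-0 and AT5G56990 stayed out with 49.94, although its Kn-0 mean was 75.1. GSTF7, AT1G26380 and CYP71A12 had no authors' adjusted p in Kn-0 and were not tested, so 18866 genes were.

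The RNA came from whole seedlings aged 4 days, grown on filter paper in continuous light and then kept for 3 h on fresh control medium (mock) or on 5 µM ABA. The groups were Col-0 mock, Col-0 ABA, Kn-0 mock and Kn-0 ABA, each with 3 biological replicates, or 12 libraries of polyadenylated RNA in all. Neither accession carried a mutation or transgene by its labels, and how many seedlings went into a library was not given in the sources used here. Because whole seedlings were used, fewer cells of a type and less RNA per cell cannot be told apart in any value below.

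ABA accumulates in plants under drought and in maturing seeds. It binds receptors of the PYR/PYL family, which then hold back the clade A protein phosphatases 2C (PP2C). SnRK2 kinases freed from these phosphatases activate transcription factors of the ABI5 and ABF type, which bind the sequence ACGTG in the promoters of genes for desiccation tolerance. In seedlings the hormone also slows growth and lowers nutrient uptake genes.

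The promoters of 3 genes among those with the smallest interaction p are shown because they mark both sides of the comparison. NAC003 and CER1 had a more positive ABA response in Kn-0, and the dehydrin gene LEA a more negative one. They run from 250 bases before to 50 after the annotated start, 5′ to 3′ on the gene's strand, in the Col-0 reference sequence of RefSeq, build TAIR10.1. Capitals mark a match, on either strand, to ACGTG (the core bound by ABI5 and ABF factors) or CCGAC (DREB factors); TTGAC (WRKY factors) was searched too. The first is NAC003 at chr1:430671-430970 on the minus strand.
NAC003: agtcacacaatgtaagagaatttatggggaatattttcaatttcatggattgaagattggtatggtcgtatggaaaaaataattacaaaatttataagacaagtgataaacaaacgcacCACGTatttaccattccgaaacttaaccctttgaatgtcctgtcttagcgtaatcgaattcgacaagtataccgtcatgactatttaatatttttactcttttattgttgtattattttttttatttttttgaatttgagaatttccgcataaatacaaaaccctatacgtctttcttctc
CER1, at chr1:418166-418465 on the plus strand, holds CCGAC 75 bases and ACGTG 44 bases before its start.
CER1: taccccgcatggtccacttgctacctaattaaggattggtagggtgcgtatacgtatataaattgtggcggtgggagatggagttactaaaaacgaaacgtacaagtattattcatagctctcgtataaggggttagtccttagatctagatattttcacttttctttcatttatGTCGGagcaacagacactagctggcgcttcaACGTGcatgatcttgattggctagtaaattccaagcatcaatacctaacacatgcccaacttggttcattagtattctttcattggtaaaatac
LEA, at chr2:9207076-9207375 on the minus strand, holds CCGAC and ACGTG.
LEA: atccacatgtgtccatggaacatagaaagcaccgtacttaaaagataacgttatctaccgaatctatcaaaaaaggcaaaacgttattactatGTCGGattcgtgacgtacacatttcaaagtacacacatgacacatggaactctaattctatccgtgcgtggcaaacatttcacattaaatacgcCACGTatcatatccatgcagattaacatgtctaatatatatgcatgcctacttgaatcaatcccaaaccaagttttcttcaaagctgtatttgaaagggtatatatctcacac
Kn-0 promoter sequences were not used here.

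Most genes responded to a like degree in both accessions, and where they differed the Kn-0 response was more often the smaller one. Of the 18866 genes tested, 705 passed the interaction test (3.74%), at a Benjamini-Hochberg adjusted p under 0.05 of a Wald test on the difference of the fold changes. The ABA response was more positive in Kn-0 for 391 of them (2.07%) and more negative for 314 (1.66%). Their median absolute difference was 0.67 on the log2 scale and the smallest was 0.24, and 189 differed by at least 1. The median difference over all genes tested was -0.014, with an interquartile range of -0.098 to 0.078. Before adjustment, 2078 genes had a p under 0.05.

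The largest class was made of genes that ABA raised in both accessions and raised less in Kn-0. It held 206 of the 314 genes with a more negative response (65.6%). A further 53 were called higher by ABA in Col-0 and not called in Kn-0, 26 were called lower in Kn-0 and not called in Col-0, 21 fell in both and fell more in Kn-0, and 8 rose in Col-0 and fell in Kn-0. Among the 391 genes with a more positive response, 165 fell in both accessions and fell less in Kn-0 (42.2%), and 97 were called lower in Col-0 and not called in Kn-0. Another 58 rose in both and rose more in Kn-0, 44 were called higher in Kn-0 and not called in Col-0, and 27 fell in Col-0 and rose in Kn-0. For background, the authors' deposited tables called 23.0% of the genes tested higher and 20.7% lower under ABA in Col-0, and 26.4% higher and 24.8% lower in Kn-0.

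**Figure D1:**
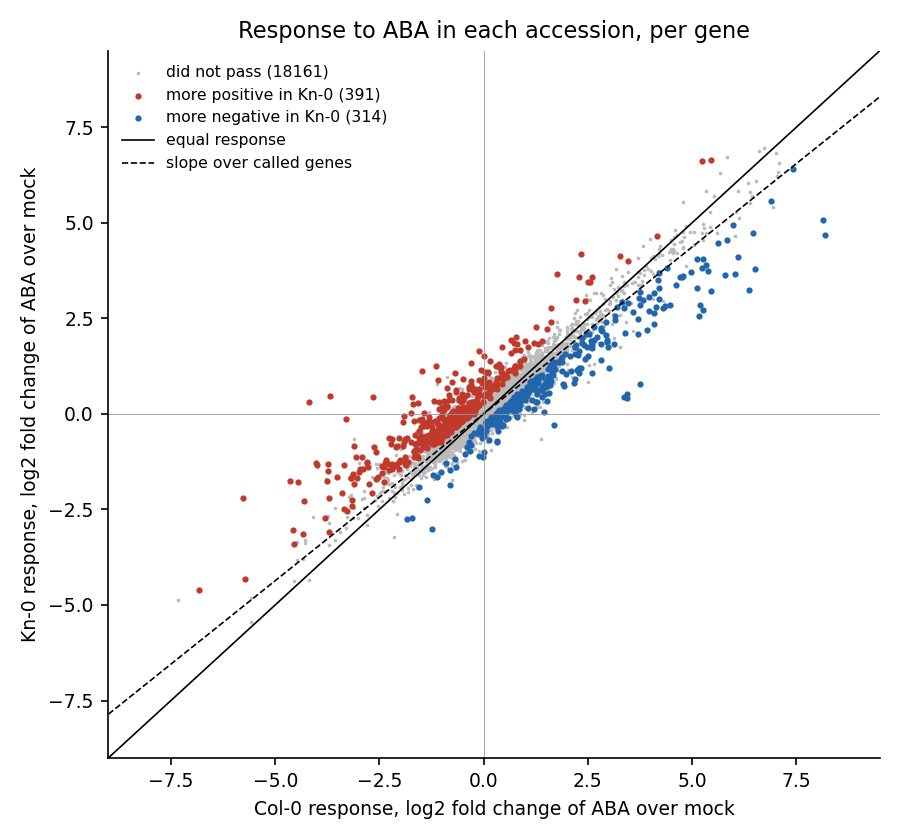
ABA response of each gene tested (log2 fold change of ABA over mock) in Col-0 on the horizontal axis and in Kn-0 on the vertical axis, from the authors' deposited tables, with genes that passed the interaction test in colour. The 391 red genes lie above and the 314 blue genes below the line of equal response.

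**Figure D2:**
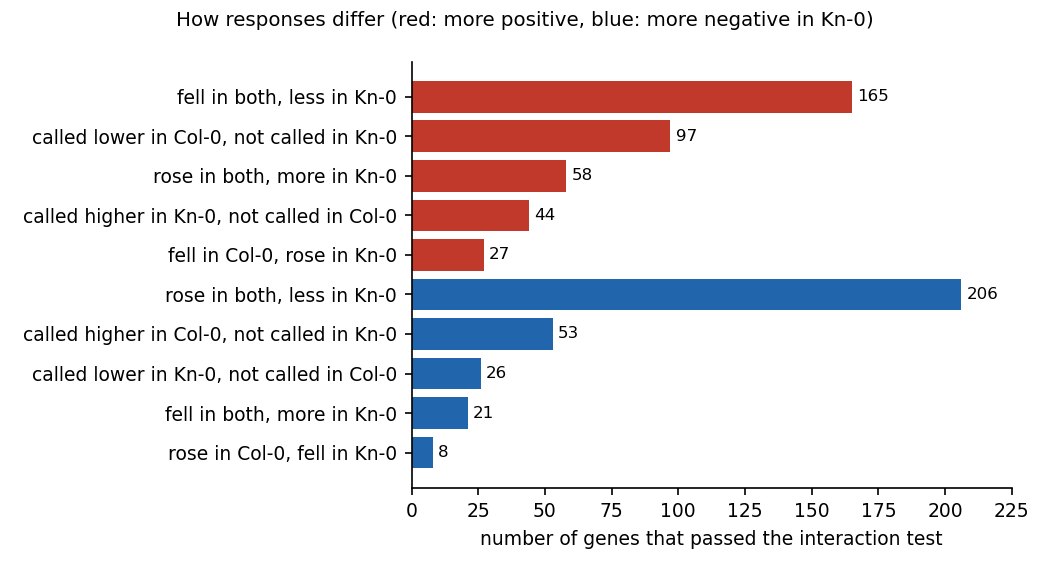
Number of genes that passed the interaction test in each class of response, by the authors' calls in each accession. Genes that rose in both accessions and less in Kn-0 (206) and genes that fell in both and less in Kn-0 (165) are the largest classes.

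Over the 10915 genes that the authors' deposited tables called in either accession, a line through 0 of Kn-0 on Col-0 responses had a slope of 0.873, and the Kn-0 response was the smaller one for 52.9% of them. When the Kn-0 fold changes were divided by this slope, 388 genes passed with a higher and 195 with a lower response in Kn-0, so the share of more positive calls moved from 55.5% to 66.6%. Of the 705 genes, 459 passed both ways with the same sign. Division by the slope kept 76 of the 206 genes that rose less in Kn-0 and 87 of the 165 that fell less. It kept all 58 that rose more, all 44 and all 26 called in Kn-0 but not in Col-0, and all 27 and 8 with opposite calls. A slope under 1 enlarges every Kn-0 response, so the division favours genes with the larger response in Kn-0. Which classes were kept was thus largely set by the arithmetic. The effect of this division on each list is given with the list. Of other genes named below, AT1G05510, KCS1, SUC1, LAX3, KT1, MGP, CYP735A2, PDIL1-1, AT2G42560, LEA4-5, RAB18, ERD10, EXPA1 and EXLB1 passed as deposited and not after the division.

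Some phosphatases of the feedback arm of ABA signalling were raised less in Kn-0 as deposited. All 9 clade A PP2C phosphatases measured were called higher in both accessions, and 4 of the 9 had a more negative response in Kn-0, none a more positive one, with a median difference of -0.39 against -0.01 over all genes. HAI3 and AHG1, phosphatases of seeds and of drought-treated tissue, differed by -1.02 ± 0.28 (SE; Wald adjusted p = 0.01) and -1.21 ± 0.36 (Wald adjusted p = 0.025). HAB1 differed by -0.44 ± 0.10 and PP2CA by -0.39 ± 0.10. None of these 4 passed after division by the slope, which turned the list's median to 0.08 and left HAI1 alone with a more positive response (0.58). HAB1 junction reads were 361, 344 and 365 in Col-0 mock, 1761, 1679 and 1989 in Col-0 ABA, 406, 393 and 390 in Kn-0 mock, and 1329, 1547 and 1504 in Kn-0 ABA. Every Kn-0 ABA library was below every Col-0 ABA library, by -0.36 on the log2 scale at this shared event (limma adjusted p = 0.00034), while the mock groups differed by 0.10 (limma adjusted p = 0.47). HAI3 junction reads, with 2 to 5 in a mock library, gave a difference of the opposite sign, 0.15 (limma adjusted p = 0.98).

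Of 29 transcription factors of the pathway measured, 7 had a more negative response in Kn-0 and none a more positive one, with a median difference of -0.20. After division by the slope, GBF3 and DREB2A still passed, and ABF2 passed in the opposite direction. GBF3, a bZIP factor that binds the G-box, had 285, 200 and 258 junction reads in Col-0 mock and 1404, 1391 and 1507 in Col-0 ABA, against 356, 378 and 354 in Kn-0 mock and 1096, 1257 and 1126 in Kn-0 ABA. The Kn-0 libraries thus lay above those of Col-0 in mock and below them under ABA. By the authors' deposited table its response was 2.58 ± 0.07 (SE) in Col-0 and 1.80 ± 0.06 in Kn-0, a difference of -0.78 ± 0.10 (Wald adjusted p = 4.4e-13; from junction reads -0.87, limma adjusted p = 0.0015). AFP1, which binds and restrains ABI5, differed by -0.90 ± 0.14 (Wald adjusted p = 5.1e-08), DREB2A, a factor of drought and heat responses, by -0.72 ± 0.11, and RD26, a NAC factor of drought, by -0.58 ± 0.12. ABI5 differed by -0.54 ± 0.13, ABF3 by -0.37 ± 0.08 and HB6, a homeodomain factor, by -0.32 ± 0.07.

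Upstream of these factors, 1 of 9 receptors, 1 of 10 SnRK2 kinases and 3 of 15 genes that make, break down or move ABA passed, against 3.74% of all genes. The receptor was PYL6: ABA lowered it in both accessions, by the authors' deposited table to -5.72 ± 0.29 (SE) in Col-0 and -4.33 ± 0.21 in Kn-0, a difference of 1.40 ± 0.36 (Wald adjusted p = 0.0051) that division by the slope ended. OST1, the SnRK2 kinase of stomatal closure, passed with -0.34 ± 0.10 (Wald adjusted p = 0.014), which the slope also ended. NCED3, the rate-limiting enzyme of ABA synthesis under drought, differed by -0.67 ± 0.15 and the exporter ABCG25 by -0.45 ± 0.11. NRT1:2, a transporter that also imports ABA, differed by 0.33 ± 0.09 and was the member of this list that passed after division by the slope. P5CS1, the first enzyme of proline synthesis, was the 1 of 14 proline and raffinose genes that passed, with -0.41 ± 0.13 (Wald adjusted p = 0.038), and it did not pass after the slope.

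Some genes of seed maturation were among the most negative differences, although most genes on the seed maturation lists did not pass. Dehydrins and other late embryogenesis abundant (LEA) proteins protect cells and seeds during drying. All 21 on the list were called higher in both accessions, and of these 5 had a more negative response in Kn-0 (EM1, LEA4-5, RAB18, ERD10 and ERD14) and 2 a more positive one (KIN1 and LEA18), with a median of -0.23 that turned to 0.37 after division by the slope, when 6 passed as more positive and 2 as more negative. EM1, an abundant protein of dry seeds, differed by -2.35 ± 0.58 (Wald adjusted p = 0.003), and its junction reads in Col-0 were 42, 12 and 44 in mock and 1123, 972 and 928 under ABA. LEA4-5 differed by -1.32 ± 0.33, RAB18 by -1.13 ± 0.30, ERD10 by -0.69 ± 0.13 and ERD14 by -0.55 ± 0.09.

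A wider group was put together after values were seen. It held the 33 genes measured whose annotation names LEA proteins, with those annotated as hydroxyproline-rich left out. It had 9 genes with a more negative and 1 with a more positive response, or 3 and 4 after division by the slope. AT5G66780 had 41, 13 and 58 junction reads in Col-0 mock and 2256, 2376 and 2508 in Col-0 ABA, against 132, 91 and 167 and then 1390, 1440 and 1757 in Kn-0. Mock and ABA libraries were far apart in both accessions, and the step was smaller in Kn-0. Levels cannot be compared between accessions, because no splicing event was matched for AT5G66780. Its deposited difference was -2.39 ± 0.51 (Wald adjusted p = 0.00025; junction reads -2.61, limma adjusted p = 0.0011). AT3G15670 differed by -2.14 ± 0.31, AT2G42560 by -1.64 ± 0.43 and AT4G36600 by -1.43 ± 0.16. The dehydrin gene LEA, whose promoter is given above, responded by 5.26 ± 0.15 (SE) with ABA in Col-0 and by 2.71 ± 0.14 in Kn-0 by the authors' deposited table, a difference of -2.55 ± 0.21 (Wald adjusted p = 2.8e-30).

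Other genes with a strong rise in Col-0 and a smaller one in Kn-0 came from no single list. Whether they share a function was not tested. The most negative difference was that of AT5G05220, an uncharacterised protein (-3.50 ± 0.72, Wald adjusted p = 0.00014). GASA3, a small gibberellin-regulated peptide of seeds, differed by -3.12 ± 0.53, and its Col-0 junction reads went from 2 in each mock library to 160, 157 and 221 under ABA. AT1G27461 differed by -2.71 ± 0.35 and AT1G05510 by -2.61 ± 0.69. PP2-B11, an F-box protein with a phloem lectin domain, responded by 3.01 ± 0.11 (SE) with ABA in Col-0 and by 1.20 ± 0.10 in Kn-0 by the authors' deposited table, a difference of -1.82 ± 0.15 (Wald adjusted p = 9.6e-31). AT5G60760, a nucleoside triphosphate hydrolase by annotation, differed by -1.22 ± 0.13, and its junction reads were 43, 34 and 25, then 143, 150 and 165 in Col-0, against 47, 25 and 46, then 78, 79 and 100 in Kn-0. The mock groups of this gene overlapped, and the ABA groups did not.

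Of 13 seed storage and oil body genes, such as those of storage proteins and oleosins, 0 passed the Wald test, with 2 at an unadjusted p under 0.05 and 0 after division by the slope. Their median difference was -0.24.

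Some heat shock and low oxygen genes also rose less in Kn-0. Of 20 heat shock genes measured, 3 had a more negative response and none a more positive one (median -0.21). ATHSP22.0, a small heat shock protein of the endoplasmic reticulum, differed by -3.07 ± 0.72 (Wald adjusted p = 0.0015), HSP101, the disaggregase, by -0.37 ± 0.11, and HSA32, needed for lasting heat tolerance, by -1.11 ± 0.16 (Wald adjusted p = 1.1e-09). HSA32 junction reads in Col-0 were 100, 117 and 121 in mock and 324, 374 and 444 under ABA. After the slope HSA32 stayed, the other 2 were lost, and HSP18.2 passed as more positive. Of 15 low oxygen genes, ADH1 (alcohol dehydrogenase), SUS4 (sucrose synthase) and AT4G33070 (pyruvate decarboxylase) had a more negative response. ADH1 differed by -2.0 ± 0.42 (Wald adjusted p = 0.00026), with Col-0 junction reads of 30, 36 and 25 in mock and 1428, 1328 and 1764 under ABA. None of these 3 passed after division by the slope, and SUS1 then passed as more positive.

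A few genes that ABA raised strongly in Col-0 responded little or not at all in Kn-0. OCT1, an organic cation and carnitine transporter, responded by 3.36 ± 0.20 (SE) and 0.44 ± 0.17 in the authors' deposited table (difference -2.92 ± 0.26, Wald adjusted p = 6.9e-26). BPS3, a BPS1-like protein, responded by 3.42 ± 0.28 and 0.41 ± 0.21 in the authors' deposited table (difference -3.01 ± 0.35). AT4G10500, an enzyme that hydroxylates salicylate, responded by 3.75 ± 0.17 and 0.77 ± 0.28 in the authors' deposited table (difference -2.98 ± 0.33) and was the 1 of 27 immunity and salicylate genes that passed. AT1G62620, a flavin monooxygenase, had 11, 1 and 11 junction reads in Col-0 mock and 80, 112 and 105 in Col-0 ABA, against 1, 10 and 6 and then 9, 8 and 11 in Kn-0. Its deposited difference was -2.90 ± 0.35 (Wald adjusted p = 4.8e-14; junction reads -3.0, limma adjusted p = 0.22). These differences kept their sign and passed after division by the slope for OCT1, BPS3, AT4G10500 and AT1G62620. The junction reads of AT1G62620 came from events not matched between accessions, so its levels cannot be compared.

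**Figure D3:**
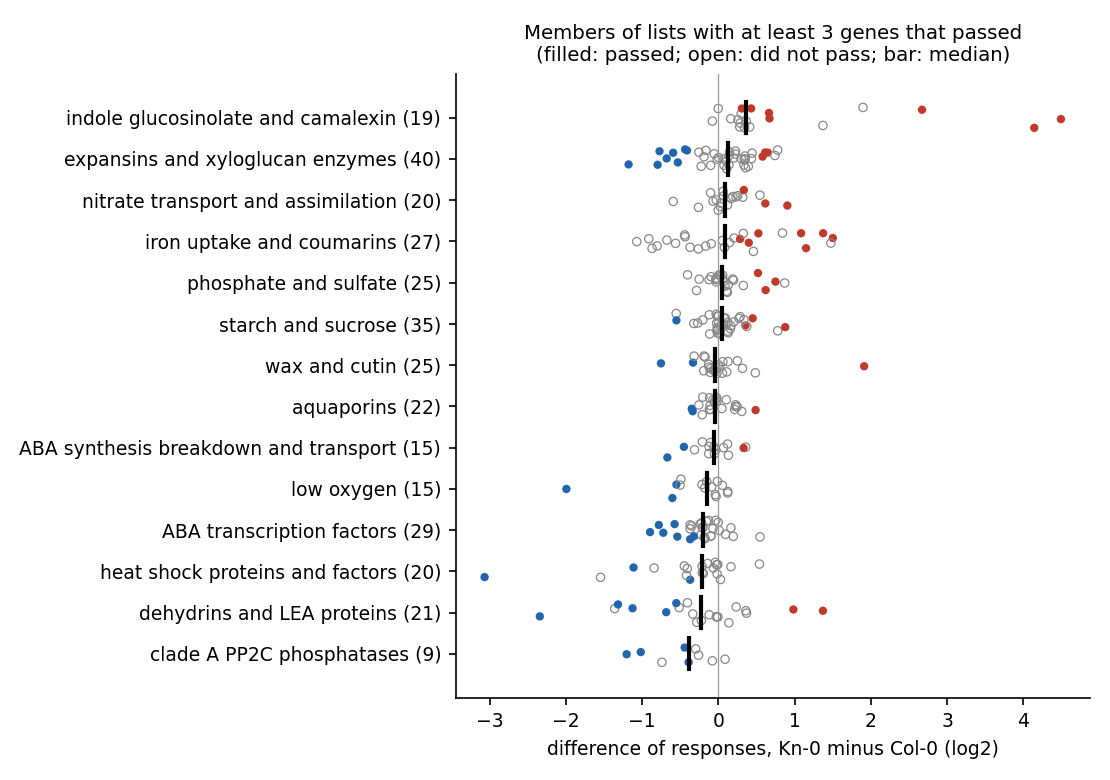
Difference of the ABA response (Kn-0 minus Col-0, log2) of each measured gene in the lists with at least 3 genes that passed, 1 point per gene and a bar at the list median. Points of the clade A PP2C, ABA transcription factor and low oxygen lists that passed lie below 0, and those of the iron and the indole glucosinolate lists above it.

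Against this trend, 58 genes rose more in Kn-0, and CER1 led them. CER1 makes the alkanes of the cuticular wax that limits water loss. It had 159, 160 and 130 junction reads in Col-0 mock and 433, 350 and 422 in Col-0 ABA, against 75, 68 and 56 in Kn-0 mock and 735, 642 and 757 in Kn-0 ABA. The Kn-0 libraries were the lowest in mock and the highest under ABA, with no overlap in either condition. At the same splicing event, Kn-0 was lower than Col-0 in mock by -1.22 (limma adjusted p = 3e-05) and higher under ABA by 0.78 (limma adjusted p = 1.1e-06), both on the log2 scale. In the authors' deposited table CER1 responded by 1.76 ± 0.10 (SE) in Col-0 and 3.67 ± 0.07 in Kn-0, a difference of 1.91 ± 0.12 (Wald adjusted p = 3.6e-53; junction reads 2.0, limma adjusted p = 9.7e-06). The other genes of wax and cutin did not share this: of 25 measured, KCS1 (-0.33 ± 0.09) and CYP86A4 (-0.76 ± 0.17) had a more negative response and CER1 alone a more positive one, which MYB94 joined after division by the slope.

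KIN1, a cold- and ABA-induced protein, had the most positive difference on the LEA list. Its junction reads were 812, 703 and 461 in Col-0 mock and 19459, 21637 and 25076 in Col-0 ABA, against 199, 185 and 200 and then 16506, 17198 and 18603 in Kn-0. These came from different splicing events in the accessions, so the levels cannot be compared. The steps can be compared only if each event followed its gene, which was not tested. Its deposited difference was 1.37 ± 0.15 (Wald adjusted p = 5.8e-16; junction reads 1.38, limma adjusted p = 0.0015). KIN1 has a close paralog, KIN2, and how reads were divided between them is uncertain. HCHIB, a basic chitinase of defence, responded by 2.33 ± 0.10 (SE) with ABA in Col-0 and by 4.18 ± 0.11 in Kn-0 by the authors' deposited table (difference 1.85 ± 0.15, Wald adjusted p = 7.8e-33). MSS1, a hexose transporter, differed by 0.88 ± 0.11.

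Further genes of this class were picked after their values were seen. TSPO, a membrane protein that ABA induces, differed by 1.19 ± 0.16, the protease inhibitor KTI1 by 0.79 ± 0.09, SOM, a zinc finger protein that restrains seed germination, by 0.86 ± 0.13, and LEA18 by 0.98 ± 0.16. The sugar exporter SWEET13 differed by 1.03 ± 0.31 and the chitinase ChiC by 0.90 ± 0.16. Among genes called higher in Kn-0 and not called in Col-0, WR3, the partner protein of high-affinity nitrate transporters, had Kn-0 junction reads of 281, 296 and 312 in mock and 489, 488 and 604 under ABA. It differed by 0.90 ± 0.13 (Wald adjusted p = 3.9e-10). GA3OX2, which makes active gibberellin, differed by 1.05 ± 0.25 and AOC1, of jasmonate synthesis, by 0.52 ± 0.16.

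**Figure D4:**
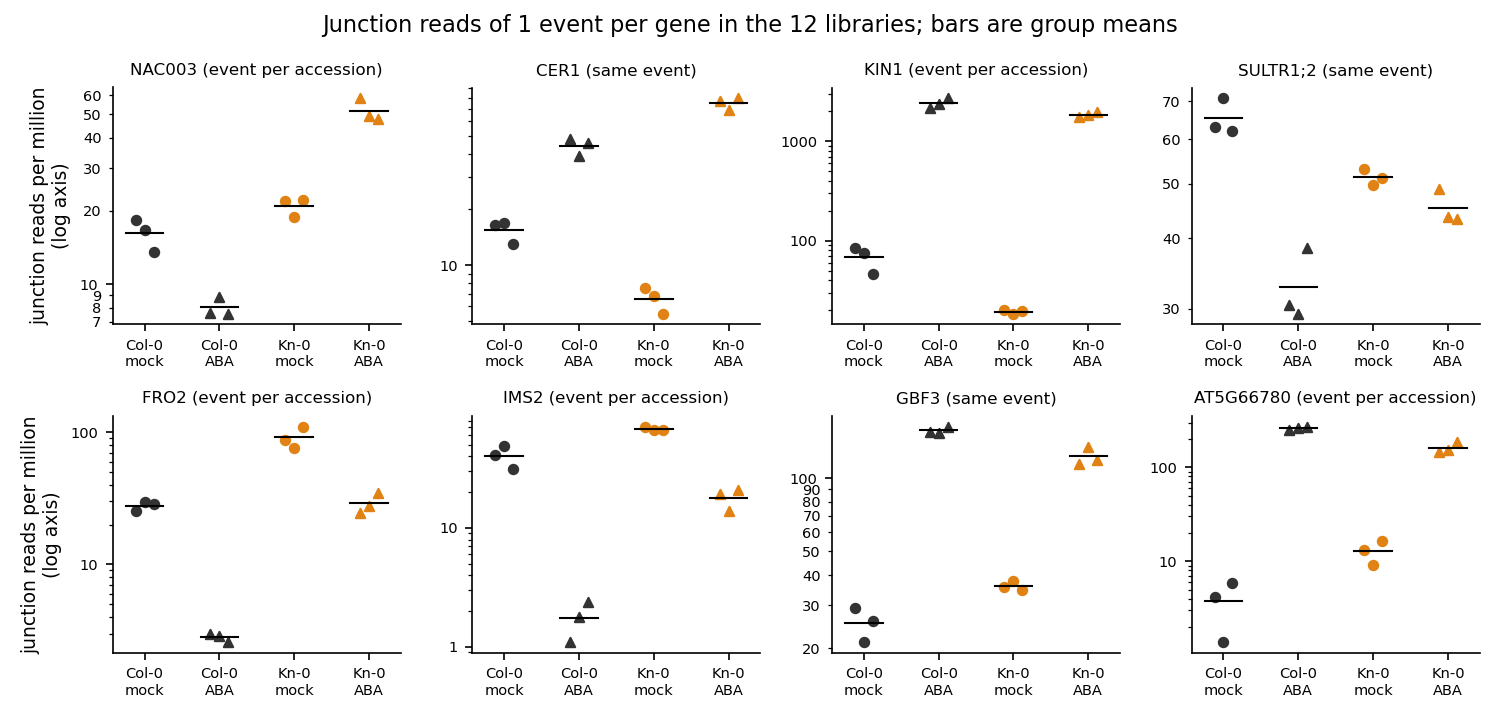
Scaled junction reads (log axis, per 1e+06 reads of the library) in each of the 12 libraries for 8 genes, circles for mock and triangles for ABA, with a bar at the group mean. CER1, SULTR1;2 and GBF3 use the same splicing event in both accessions. For the other genes only the step from mock to ABA can be compared, if the event of each accession follows its gene. NAC003 falls in Col-0 and rises in Kn-0.

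Some genes for sulphur-containing defence compounds, 7 of 19 in the indole and 2 of 22 in the aliphatic list, had a more positive response in Kn-0. Glucosinolates are stored toxins, the indole type made from tryptophan and the aliphatic type from methionine, and camalexin is an antimicrobial made from the same indole precursor. Of 19 indole glucosinolate and camalexin genes measured, the authors' deposited tables called 18 lower under ABA in Col-0 and 9 in Kn-0. The median difference was 0.36 (0.34 after the slope). CYP79B3, which makes the shared indole precursor, differed by 0.67 ± 0.12 (Wald adjusted p = 1.3e-06), and its sister enzyme CYP79B2 by 0.66 ± 0.20 (Wald adjusted p = 0.038). The myrosinase PEN2 differed by 0.31 ± 0.09 and the peptidase GGP1 by 0.43 ± 0.13. IGMT2 and IGMT3 methylate indole glucosinolates and lie side by side at chr1:7389981-7396823 (TAIR10.1). They differed by 2.67 ± 0.69 and 2.72 ± 0.37, with an uncertain division of reads between such close copies. IGMT3 is not on the list. After division by the slope CYP79B3 and CYP81F2 still passed among the 7 on the list, and so did IGMT3.

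For 2 of these 7 genes junction reads showed that the Kn-0 value depended on 1 library. Not every gene had such reads. IGMT2, with no junction values shared by both accessions, had a Kn-0 standard error of 0.64. NAC042, a NAC factor on the camalexin side, had 19, 10 and 18 junction reads in Kn-0 mock and 46, 7 and 3 in Kn-0 ABA. CYP81F2, which hydroxylates indole glucosinolates, had 17, 30 and 25 and then 73, 6 and 4. The first Kn-0 ABA library stood above all Kn-0 mock libraries for both genes and the other 2 stood below them. Their deposited differences, 4.50 ± 1.30 (Wald adjusted p = 0.02) and 4.14 ± 1.04 (Wald adjusted p = 0.0038), carried the largest standard errors among the genes named. Without that library the Kn-0 response in junction reads went from 0.33 to -1.45 for NAC042 and from 0.28 to -2.05 for CYP81F2. PER4, a class III peroxidase with a difference of 3.16 ± 0.66, had 89, 71 and 111 and then 123, 35 and 47, and its Kn-0 response went from -0.31 to -1.03. Of 186 genes with a more positive response and Kn-0 junction reads, 6 were more than 2-fold higher in this library (3.23%). The comparison was with the mean of the other 2 Kn-0 ABA libraries, and over all genes it gave 36 of 12248 (0.294%). Other libraries also departed from their group. The second Kn-0 ABA library was more than 2-fold lower for 7 of these 186 genes (3.76%), against 0.408% of all genes. The first Col-0 ABA library was more than 2-fold lower for 7 of 177 (3.95%), against 0.8% of all genes. The part of single libraries in the list's result was not tested, since the gene tables hold no library values.

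The aliphatic branch showed a strong difference in 1 enzyme. IMS2, which elongates methionine-derived chains, had 400, 460 and 316 junction reads in Col-0 mock and 10, 16 and 22 in Col-0 ABA, against 707, 665 and 680 and then 184, 129 and 197 in Kn-0. ABA lowered it in both accessions without overlap, and the step was smaller in Kn-0. Levels cannot be compared between accessions, because no splicing event was matched for IMS2. By the authors' deposited table the response was -4.64 ± 0.18 (SE) in Col-0 and -1.76 ± 0.19 in Kn-0, a difference of 2.88 ± 0.27 (Wald adjusted p = 1.1e-23; junction reads 2.59, limma adjusted p = 0.0024). CYP79F2, which starts the synthesis of long-chain aliphatic glucosinolates, differed by 0.77 ± 0.21 and did not pass after the slope. The other 20 of the 22 genes measured did not pass, although the list's median difference was 0.46 (0.41 after the slope).

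Several iron uptake genes fell in both accessions and fell less in Kn-0. Arabidopsis roots reduce ferric iron with FRO2, import it with IRT1, acidify the soil with HA2 and export iron-mobilising coumarins through ABCG37. By the authors' deposited tables, 14 of 27 iron and coumarin genes were lower under ABA in Col-0 and 15 in Kn-0. Of the 27, 7 had a more positive response in Kn-0, none a more negative one, with a median of 0.08. FRO2 had 245, 279 and 285 junction reads in Col-0 mock and 27, 26 and 24 in Col-0 ABA, against 871, 763 and 1117 and then 233, 255 and 331 in Kn-0. All ABA libraries lay below the mock libraries of their accession. Levels cannot be compared between accessions, because no splicing event was matched for FRO2. Its deposited difference was 1.37 ± 0.24 (Wald adjusted p = 1.6e-06; junction reads 1.62, limma adjusted p = 0.035). AT3G13610, which makes the coumarin scopoletin, differed by 1.50 ± 0.35, IRT1 by 1.15 ± 0.27, NAS1, of nicotianamine synthesis, by 1.08 ± 0.33, and the metal transporter MTPA2 by 0.52 ± 0.15. ABCG37 and HA2 differed by 0.40 ± 0.10 and 0.28 ± 0.09. FRU, the bHLH factor that switches on FRO2 and IRT1, was counted with its family and differed by 0.89 ± 0.19 (Wald adjusted p = 0.00036). After division by the slope FRO2 and AT3G13610 passed, and MYB10, a factor of the iron response, passed in the opposite direction (-1.54).

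Of 25 phosphate and sulfate genes, 3 had a more positive response and none a more negative one. SULTR1;2, the main root importer of sulfate, had 614, 668 and 620 junction reads in Col-0 mock and 276, 266 and 357 in Col-0 ABA, against 528, 496 and 523 and then 466, 406 and 410 in Kn-0. Kn-0 was lower than Col-0 in every mock library and higher in every ABA library. The deposited difference was 0.75 ± 0.11 (Wald adjusted p = 5.1e-09; junction reads 0.82, limma adjusted p = 0.0025), and it passed after division by the slope. The phosphate importers PHT1;1 and PHT1;2, neighbours of near-identical sequence whose reads may be divided arbitrarily, differed by 0.52 ± 0.12 and 0.62 ± 0.15 and did not pass after it. Of 20 nitrate and ammonium genes, WR3, the ammonium transporter AMT1;3 (0.61 ± 0.16) and UPM1 (0.33 ± 0.09), which makes the sirohaem of nitrite reductase, had a more positive response, and WR3 kept it after the slope. The sucrose transporter SUC1 differed by 0.45 ± 0.10, the auxin importer LAX3 by 0.46 ± 0.12 and the potassium channel KT1 by 0.29 ± 0.09, each from a smaller fall in Kn-0.

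Some receptor kinases and other defence-related genes also passed, most with a more positive response. Over all genes tested, 2.07% passed as more positive and 1.66% as more negative. Of the 27 genes on the immunity and salicylate list, 0 passed as more positive and 1 as more negative. Groups named from the annotation text or by gene family were put together after values were seen. Of 124 leucine-rich repeat kinases measured, 12 had a more positive response in Kn-0 and 1 (AT3G23750) a more negative one, or 8 and 1 after the slope, while 111 did not pass and the median difference was -0.02. AT5G59680 responded by -5.78 ± 0.47 (SE) with ABA in Col-0 and by -2.19 ± 0.29 in Kn-0 by the authors' deposited table (difference 3.59 ± 0.55, Wald adjusted p = 2.6e-08). AT3G46270, another receptor kinase by annotation, differed by 2.67 ± 0.54. Of 64 proteins with a cysteine- and histidine-rich C1 domain, 7 had a more positive response and none a more negative one, led by AT2G44370 (2.42 ± 0.41, Wald adjusted p = 5.9e-07). Of 99 resistance proteins of the NBS-LRR type, 8 responded more positively and 3 more negatively. Among 12 class III peroxidases picked by gene symbol, 5 had a more positive response, or 2 after the slope. Peroxidases without a matching symbol or synonym were not counted. The cell wall kinase WAK2 differed by 2.17 ± 0.27, with Col-0 junction reads of 146, 124 and 121 in mock and 49, 39 and 39 under ABA. ACD6, an ankyrin protein that promotes salicylate defence, had Col-0 junction reads of 256, 229 and 304 in mock and 98, 90 and 78 under ABA. It was called lower in Col-0 and not called in Kn-0 (difference 1.40 ± 0.12, Wald adjusted p = 5.8e-27). EARLI1, a lipid transfer protein, differed by 2.27 ± 0.58.

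Of genes of other hormones, 2 of 21 for cytokinin, 2 of 21 for gibberellin, 1 of 23 for jasmonate and 1 of 42 for auxin passed, against 3.74% of all genes. Of the cytokinin genes, CYP735A2, which makes trans-zeatin, differed by 1.08 ± 0.31 and IPT5, of cytokinin synthesis, by 1.13 ± 0.22, and IPT5 passed after the slope. The others were GA3OX2 and GASA3 of gibberellin, in opposite directions, AOC1 of jasmonate and LAX3 of auxin. MGP, a zinc finger protein of the root ground tissue, was the 1 of 10 root stem cell niche genes that passed (0.65 ± 0.19). CYP705A1, a cytochrome P450 of a root triterpene cluster, differed by 1.06 ± 0.18 and was the 1 of 8 genes of these clusters that passed. PDIL1-1, a disulphide isomerase, passed among 16 genes of protein folding in the endoplasmic reticulum, with the smallest difference of all genes named (0.24 ± 0.07).

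Cell wall and water channel genes passed in both directions. Of 40 expansins and xyloglucan enzymes, 8 had a more negative and 3 a more positive response in Kn-0 (7 and 2 after the slope), 29 did not pass, and the list's median was 0.12. Expansins loosen the wall, and xyloglucan endotransglucosylases (XTH) cut and rejoin its tethers. The 8 were EXLA1, EXLA2, EXLB1, XTH15, XTH16, XTH19, XTR6 and TCH4, that is, expansin-like genes and XTH genes. TCH4, an XTH gene known for its response to touch, differed by -1.18 ± 0.29 (Wald adjusted p = 0.0034), XTH19 by -0.80 ± 0.12 (Wald adjusted p = 5.3e-09) and EXLA2 by -0.77 ± 0.13. The 3 were the expansins EXPA1 (0.61 ± 0.18), EXPA15 (0.65 ± 0.13) and EXPB1 (0.58 ± 0.18). Of 22 aquaporins, PIP1C and PIP3 had a more negative response (-0.35 ± 0.10 and -0.34 ± 0.10) and PIP2;4 a more positive one (0.49 ± 0.14). After the slope PIP2;4 and TIP2;2 passed as more positive and no aquaporin as more negative. MYB9, a regulator of suberin, was the 1 of 18 suberin genes that passed, with -1.09 ± 0.24 (Wald adjusted p = 0.00036). After the slope MYB9 stayed, and the suberin genes KCS2, FAR4, FAR5 and RWP1 passed as more positive.

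Genes that ABA lowered more in Kn-0 were few. Those named here were picked after their values were seen. JAL33, a jacalin-type lectin, differed by -0.71 ± 0.08 among the 21 that fell in both accessions. LUP1, a triterpene synthase, was called lower in Kn-0 and not called in Col-0. At the same event it had 114, 110 and 92 junction reads in Col-0 mock and 102, 89 and 104 in Col-0 ABA, against 44, 35 and 40 and then 33, 19 and 20 in Kn-0. The Col-0 groups overlapped and the Kn-0 groups did not, and its deposited difference was -1.12 ± 0.17. HKT1, a sodium transporter of the root vasculature, differed by -0.81 ± 0.23 and CCD8, of strigolactone synthesis, by -0.99 ± 0.26.

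NAC003 gave the smallest p of all and the clearest case of opposite responses. This NAC transcription factor had 179, 157 and 135 junction reads in Col-0 mock and 69, 80 and 70 in Col-0 ABA, whereas it had 219, 189 and 226 in Kn-0 mock and 554, 456 and 457 in Kn-0 ABA. ABA and mock libraries did not overlap in either accession, and the direction was opposite. Levels cannot be compared between accessions, because no splicing event was matched for NAC003. In the authors' deposited table the response was -1.14 ± 0.11 (SE) in Col-0 and 1.26 ± 0.07 in Kn-0, a difference of 2.40 ± 0.13 (Wald adjusted p = 4.9e-75; junction reads 2.30, limma adjusted p = 8.7e-07). NAC003 and CER1 are adjacent among the genes tested, within chr1:418416-430720 on TAIR10.1.

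Other genes with opposite calls included proteases, lectins and receptors. AT4G10510, a subtilisin-like protease, had 15, 17 and 29 and then 13, 2 and 6 junction reads in Col-0, against 26, 38 and 54 and then 93, 75 and 77 in Kn-0. Its ABA groups were far apart, and at this shared event Kn-0 exceeded Col-0 by 3.71 on the log2 scale under ABA (limma adjusted p = 3.8e-06) and by 0.88 in mock (limma adjusted p = 0.074). Its deposited difference was 2.60 ± 0.35 (Wald adjusted p = 6.8e-11). AT3G16530, a legume-type lectin, responded by -2.65 ± 0.32 (SE) with ABA in Col-0 and by 0.43 ± 0.17 in Kn-0 by the authors' deposited table. RLP54, a receptor-like protein, responded by -0.31 ± 0.08 and 1.34 ± 0.07 in the authors' deposited table (difference 1.65 ± 0.11, Wald adjusted p = 5.4e-50). OSM34, an osmotin-like protein of defence, had Kn-0 junction reads of 4708, 4463 and 5192 in mock and 7725, 6097 and 6414 under ABA, and differed by 1.55 ± 0.13. CNI1, a ubiquitin ligase that acts in carbon and nitrogen balance and in defence, differed by 1.97 ± 0.27, and AT5G38710, a proline dehydrogenase, by 1.75 ± 0.24. Among the 8 genes that rose in Col-0 and fell in Kn-0, BGLU22, a beta-glucosidase, had 1176, 984 and 1111 and then 1350, 1387 and 1372 junction reads in Col-0, against 663, 811 and 879 and then 611, 606 and 569 at the same event in Kn-0. Its difference was -0.73 ± 0.09 (Wald adjusted p = 7.7e-14), and the most negative difference of the 8 was that of the asparaginase ASPGB1 (-1.05 ± 0.19).

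Because the gene tables were normalised separately, levels were compared between accessions only at splicing events matched in both. Such an event was found for 190 passed genes. Of the 94 with a more positive response, Kn-0 was higher than Col-0 under ABA for 63 (67.0%) and in mock for 24 (25.5%), and lower in mock for 17 (18.1%). Of the 96 with a more negative response, Kn-0 was lower under ABA for 46 (47.9%) and higher in mock for 31 (32.3%), and lower in mock for 12 (12.5%). Over all 8819 matched genes, limma called Kn-0 higher for 12.6% and lower for 14.8% in mock, and higher for 13.9% and lower for 15.0% under ABA. Since the genes were chosen for their responses in the same libraries, these shares are partly set by the choice and carry no test.

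Within the classes the pattern differed. Of 59 matched genes that rose in both accessions and less in Kn-0, 23 were already higher in Kn-0 mock (39.0%) and 0 lower, while 21 were lower in Kn-0 under ABA (35.6%) and 6 higher. Of 46 that fell in both and less in Kn-0, 33 were higher in Kn-0 under ABA (71.7%) and 0 lower. Of 15 that rose more in Kn-0, 6 were lower in mock (40.0%) and 7 higher under ABA (46.7%). CER1 belongs to both of these counts.

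**Figure D5:**
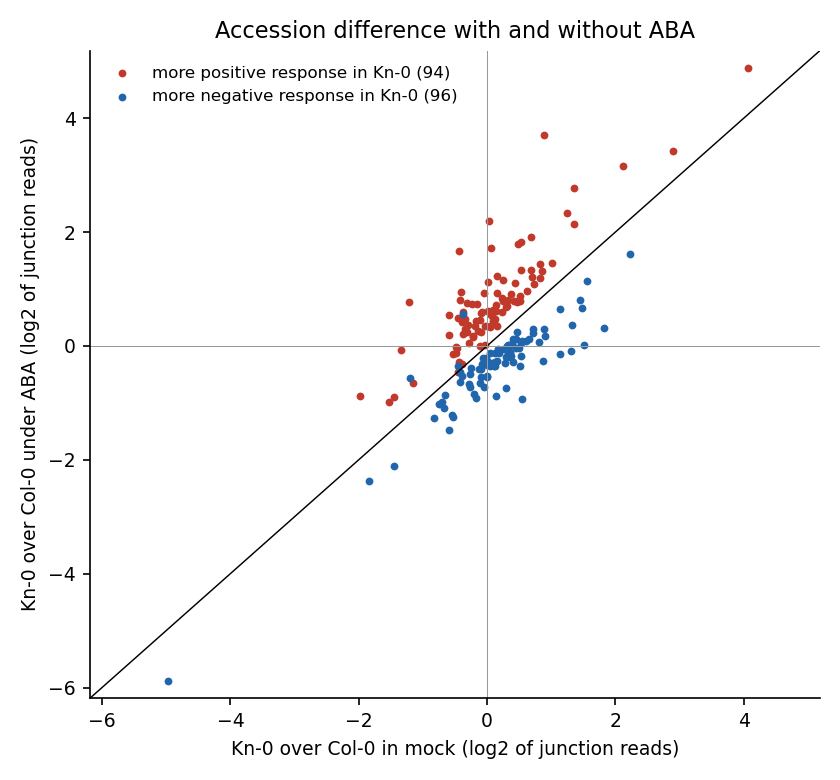
Level in Kn-0 over Col-0 (log2 of junction reads at the same event) in mock on the horizontal axis and under ABA on the vertical axis, for the 190 passed genes with a matched event. Red genes with a more positive response lie above the line of equality and blue genes below it with few exceptions, as their choice implies, and 63 of the 94 red genes were higher in Kn-0 under ABA.

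The junction reads also gave a second reading of the interaction, from the same libraries. Over 11648 genes with such reads in both accessions, limma passed 26 as more positive (0.223%) and 21 as more negative (0.18%) in Kn-0, with 964 at an unadjusted p under 0.05. Of the 297 genes passed by the Wald test that had junction values, 292 had the same sign, 209 of them at an unadjusted p under 0.05 and 39 at an adjusted p under 0.05. Since these genes were chosen on counts from the same libraries, this sharing of sign is largely set by the choice. It is no independent check. The counts moved most without Col-0 mock library 3 (73 and 37 passed) and without Col-0 mock library 2 (16 and 10). The 12 libraries held 9173059 to 10010250 such reads. On simulated data this fit recovered 56.7% of differences of 1 on the log2 scale, where the Wald test recovered 94.5%. The simulations were built differently, so these shares cannot be compared directly.

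ACGTG was more common in the promoters of genes that rose. It occurred in 24.6% of all 37897 promoters, in 55.3% of the 206 genes that rose less in Kn-0, in 29 of the 58 that rose more, and in 41.1% of 3489 genes called higher in both that did not pass. Among genes that fell less in Kn-0 it occurred in 26.1%, against 23.3% of genes called lower in both that did not pass. TTGAC occurred in 49.5% of all promoters, in 60.6% of the 165 genes that fell less in Kn-0 and in 51.9% of genes called lower in both that did not pass. CCGAC occurred in 15.3% of all promoters, 19.4% of genes with a more negative and 11.3% of genes with a more positive response. GAANNTTC, the pattern of heat shock elements, occurred in 11.4%, 10.2% and 14.1%. These are matches of letters on either strand in the Col-0 sequence, with no test.

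Some passed genes were neighbours. There were 53 adjacent pairs among the genes tested, 37 with the same and 16 with opposite directions. AT2G29320, TRI and AT2G29340, at chr2:12592129-12599299, made a run of 3 with a more positive response, and NSP4, PBP1 and JAL31, at chr3:5571903-5583258, a run of 3 with a more negative one (TAIR10.1). AT4G10500 and AT4G10510 at chr4:6491017-6499205 differed in opposite directions, by -2.98 and 2.60, as did FRO2 and CYP86A4. Reads of overlapping or near-identical neighbours may be shared, and whether the counting used strand was not given in the sources used here.

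Of the 42 lists, 12 had no gene that passed the Wald test. At an unadjusted p under 0.05 there were 4 of 20 ethylene, 1 of 17 brassinosteroid, 1 of 18 root hair, 0 of 8 Casparian strip, 1 of 45 photosynthesis, 0 of 17 chlorophyll synthesis, 2 of 37 cell cycle, 1 of 23 circadian clock, 3 of 24 flavonoid, 3 of 14 cold response and 0 of 20 SR splicing factor genes, besides the seed storage genes above. None of these passed after division by the slope either. Their median differences ran from -0.24 (seed storage) to 0.13 (flavonoid). In some lists the signs leaned 1 way. Of photosynthesis genes 38 were above 0 and 7 below, of circadian clock genes 2 and 21. Of cell cycle genes 9 were above and 28 below, and of SR factor genes 3 and 17. Over all genes tested it was 8543 and 10323, and these leanings were not tested. Gene by gene, differences of the size seen among growth, light and cell cycle genes were not detectable here, which does not show that they were equal.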

How the data were processed

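Messenger RNA of 12 whole-seedling libraries in 4 groups was measured, and samples were grouped by accession and treatment as titled. Tools in the submitters' processing notes are STAR, featureCounts and DESeq2, with the build TAIR10 and no versions. Per the file headers, each deposited gene table of the authors (1 per accession, normalised separately) holds the mean signal, that is, counts after size-factor scaling. It also holds the deposited log2 fold change of ABA over mock with its standard error, the authors' Wald statistic, which is a score, and deposited p-values, raw and adjusted. The Kn-0 header lacks 1 name, and columns were read 1 place to the right of it. No column of values was left without a sample or group.

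The difference of the fold changes was divided by the root of their summed squared standard errors. The test was two-sided, with p-values adjusted by Benjamini-Hochberg across the 22001 genes tested in both tables. The 2 tables share no library. On simulated data this recovered 72.5%, 94.5% and 100% of differences of 0.5, 1 and 2, with 4.3% of calls false. The simulated estimates were drawn with the same standard errors that the test used. These shares therefore cannot show whether the deposited errors hold. Pooled errors are those of the authors' fits, so p-values rest on 3 libraries a group.

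Junction reads per library were taken from the deposited splicing tables, made with rMATS as their names say. Where commas between libraries were lost, reads were recovered by splitting the digits to match the deposited inclusion levels to 0.0005. Usable reads came from 73.63% of events in Col-0 and from 72.35% in Kn-0, and ambiguous ones were left out. Retained introns began with GT and ended with AG on TAIR10.1 for 94.0% of events in Col-0 and for 0.28% in Kn-0, so Kn-0 splicing coordinates are of another assembly. Events were therefore matched by gene and exon-edge distances (9083 genes). For other genes the deepest event of each accession served for the interaction, without level comparison. Each gene table listed 32833 genes, and 27801 were in both, so the sets of genes listed differed. Whether the Kn-0 gene table used another genome was not tested. Junction reads with a mean of at least 10 were fitted with limma 3.58.1 (voom) in R 4.3.3, with median-of-ratios size factors, for 11648 genes. A count-model fit had been planned, and limma was used in its place. On simulated data the limma fit recovered 1.49%, 56.7% and 93.9% of differences of 0.5, 1 and 2, with 7.34% of calls false. Counts of replicate pairs differed more than sampling noise (chi-square over degrees of freedom 2.68 to 7.5), so each library counted as 1 replicate.

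Members, lists and tests were chosen with earlier results of these data known. Of 1040 list entries, 992 matched a gene by symbol and 48 were dropped. Genes named were the 12 most positive and 12 most negative differences, the 6 smallest p in each direction, the 6 largest opposite calls, and the 3 largest differences of each list, all among genes that passed. Others were named as list members or after their values were seen. Text groups and families were made after values were seen. The promoter of 1 further gene chosen by the same rule is not reported here.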

Additional observations from a re-analysis of the deposited data

Results flagged for a closer look

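Some genes responded to ABA in opposite directions. By the authors' calls and the Wald test of the difference, 27 genes fell under ABA in Col-0 and rose in Kn-0, and 8 rose in Col-0 and fell in Kn-0. The largest differences among them were 3.08 for the lectin AT3G16530, 2.60 for the protease AT4G10510, 2.40 for NAC003, 1.97 for CNI1, 1.75 for AT5G38710, 1.65 for RLP54 and 1.55 for OSM34, all on the log2 scale. Junction reads of NAC003 and AT4G10510 gave the same sign in a fit of all libraries, but they come from the same libraries and are no independent check.

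Genes with a mean normalised count under 50 in a table were not described above. Of 3135 such genes tested, 53 passed the interaction test (1.69%), 37 towards a higher and 16 towards a lower response in Kn-0.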

How the results depend on the processing

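The count of genes with a more positive response was 391 and moved to 118 with a difference of at least 1 required and to 26 with junction reads. The count with a more negative response was 314 and moved to 195 after division by the slope, to 202 at an adjusted p under 0.01, to 71 with a difference of at least 1, and to 21 with junction reads. The junction fit covered fewer genes than the Wald test and, in a simulation of another design, recovered fewer differences. The cause of its lower counts was not tested further. Other minimum means, adjustment over the genes described alone and subtraction of the median difference kept both counts within 1.5 times. Junction-read counts were 26 and 21. They became 13 and 11 with matched events alone, and ran from 16 to 73 and from 10 to 37 when each library was left out. For the more negative count, leaving out Kn-0 mock library 1 or Kn-0 ABA library 3 gave 12. Counts of level differences ran from 1863 to 2488 in mock and from 2041 to 2691 under ABA. HAI3 reversed on junction reads (0.15, limma adjusted p = 0.98), with the cause not tested. Of the 84 genes chosen by the naming rule, 51 passed after division by the slope and 33 did not. All 84 passed when p-values were adjusted over the genes described alone, 66 passed at an adjusted p under 0.01, and 83 passed with the median difference subtracted. Junction reads, total reads as library size, matched events and leaving out Kn-0 ABA library 1 were chosen as alternatives after seeing the data. Another count tool with its own scaling was not run. No paired analysis was possible because the gene tables hold no library values and the library order in the splicing tables carries no replicate number. The gene tables allow no leave-one-out for the same reason.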
